A study of Mus musculus with 9 samples.

Results

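The mouse mammary gland at day 4 of involution, 4 days after the pups were weaned, was compared with the gland at day 10 of lactation. The comparison used 2 involution arrays and 2 lactation arrays, 4 of the 9 MG-U74Av2 arrays of the study, and took in all 12422 probe sets other than the controls, not a chosen set of genes. Each array carried RNA of the whole inguinal gland of 1 wild-type C57BL/6J female, an inbred line, and the stage was the only difference between the groups that the labels give. The ages of the involuting and lactating females are not given in the sources used here. The other arrays, 3 at puberty (virgin females of 6 weeks) and 2 at day 14 of pregnancy, entered the estimate of the spread and a second comparison. Values are MAS5 signals, scaled so that all arrays had the same median, and a signal of 20 was the floor below which values were not told apart. The levels of different genes were not compared by their signals, because each probe set binds with its own strength. Where signals of several probe sets were added, the sum weights each gene by that strength and was compared only between arrays.

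During lactation the alveolar epithelium makes milk proteins, lactose and milk fat under the control of prolactin, which acts through the transcription factor STAT5. When suckling ends, milk stasis and the loss of prolactin bring on involution. In the mouse, LIF and other cytokines of the IL-6 family then act through STAT3, secretory cells die and are cleared, and metalloproteinases open the matrix while fat cells refill and macrophages and lymphocytes enter the gland.

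The 2 involution arrays stood apart from all others in a measure of RNA quality. The array carries probe sets for the 3′ end and the 5′ end of 3 control transcripts, and the ratio of their signals is near 1 for intact RNA that was copied in full. For Gapdh the ratio was 4.34 and 4.71 at involution, against 1.43 and 1.29 at lactation. For beta-actin it was 3.02 and 4.14 at involution, against 1.86 and 1.74 at lactation. Pyruvate carboxylase, a long transcript, had ratios of 44.5 and 64.8 at involution, against 2.98 and 2.11 at lactation. Its 3′ signals overlapped, at 1488 and 1174 at involution and 1259 and 1660 at lactation, while its 5′ signals were 33.5 and 18.1 at involution, against 422 and 787 at lactation. The ratios and the stage moved together on these arrays, and the part of RNA quality in the differences reported here was not tested.

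**Figure D1:**
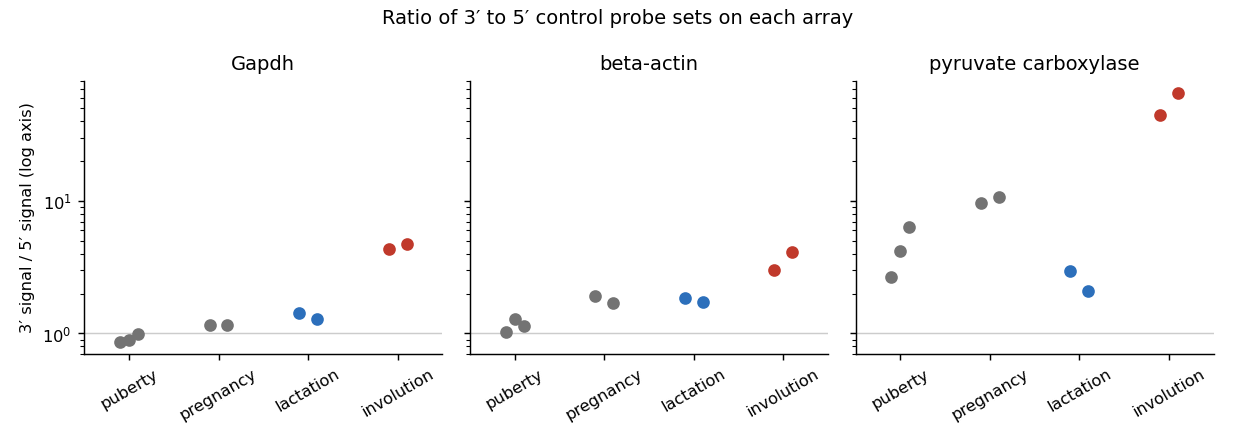
Ratio of the 3′ signal to the 5′ signal (log axis) of the control probe sets for Gapdh, beta-actin and pyruvate carboxylase on each of the 9 arrays, by stage; each point is 1 array. The 2 involution arrays lie above the 7 others for all 3 transcripts.

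Many of the measured transcripts differed between the stages, 4415 probe sets or 45.1% of those tested. Of 9783 probe sets tested, those with a mean signal above 20 in at least 1 of the 4 stages, 2165 were higher at involution (22.1%) and 2250 were lower (23%) by limma with Benjamini-Hochberg adjustment at 0.05. Changes of 2-fold or more were found for 2862 probe sets (29.3%), 1470 higher (15%) and 1392 lower (14.2%). Both involution arrays lay above both lactation arrays for 3321 probe sets (33.9%) and below them for 3694 (37.8%). With 1 probe set per gene, the brightest, 3259 of 7090 genes passed (46%), 1728 higher (24.4%) and 1531 lower (21.6%), and the median log2 change over all of them was 0.0084. Of the genes, 2101 changed by 2-fold or more (29.6%), 1177 upwards (16.6%) and 924 downwards (13%), while both involution arrays lay above both lactation arrays for 2598 (36.6%) and below them for 2491 (35.1%). These shares are the background for the lists of genes given in the following. Over the tested probe sets, r was 0.960 between the involution arrays, 0.947 between the lactation arrays and 0.750 to 0.799 between an involution and a lactation array. The 10 brightest probe sets held 3.60% and 4.31% of all signal at involution, against 9.09% and 7.53% at lactation. In RNA of the whole gland, fewer cells of a type and less RNA per cell cannot be told apart.

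**Figure D2:**
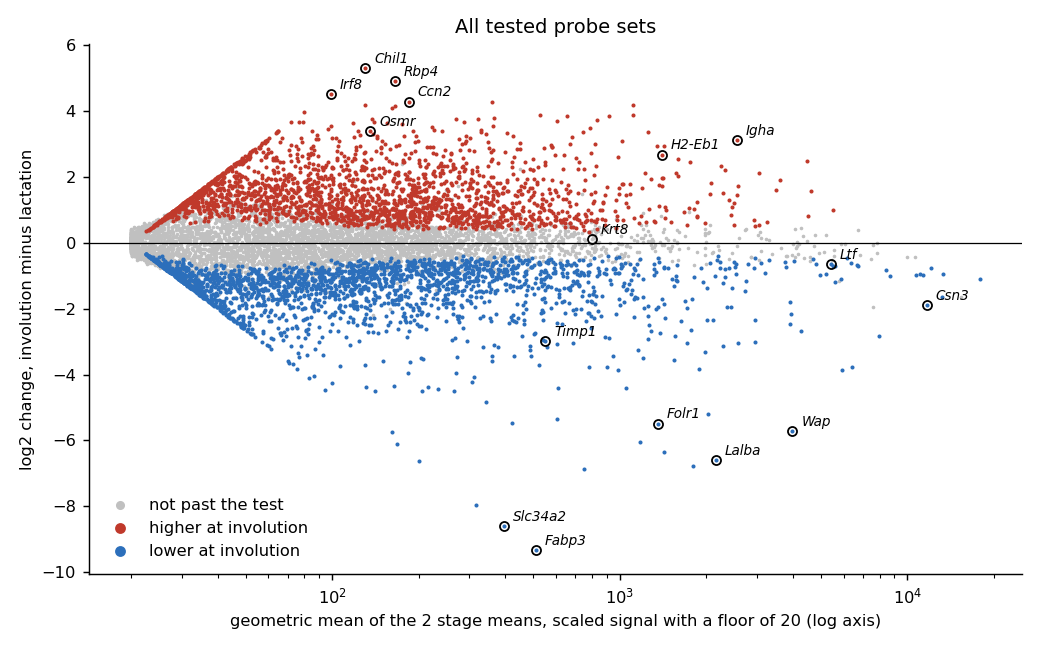
Log2 change, involution minus lactation, against the geometric mean of the 2 stage means (scaled signal with a floor of 20, log axis) for the 9783 tested probe sets; red points were higher and blue points lower at involution by limma (adjusted p below 0.05), grey points did not pass. Secretory genes such as Fabp3, Slc34a2, Lalba and Wap reach far below the line, further than any point lies above it.

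The 12 largest rises included genes of immune cells, of the matrix and of plasma carriers. Rbp4, which encodes the retinol carrier of plasma, had signals of 1048 and 766 at involution, against 26.5 and 33.3 at lactation, 30.2-fold higher (adjusted p = 1.14e-05). Irf8, a transcription factor gene of macrophages and B cells, had 436 and 542 at involution, against 5.2 and 22.5 at lactation, and 1 of its lactation arrays was at the floor. Ccn2, the gene of connective tissue growth factor, had 1088 and 577 at involution, against 37.1 and 44.5 at lactation, and Tyrobp, an adaptor of receptors on myeloid cells, had 1030.1 and 1282 at involution, against 58 and 122 at lactation. The stages were apart in all 4 genes, but separate arrays were a condition for the 12 largest rises and add no further support. The others among the 12 largest rises were the immunoglobulin light chain segments Igkv6-14 and Igkv4-70, the B cell receptor subunit Cd79b, the neutral amino acid transporter Slc1a5, the receptor Notch1, Wfdc21, Cmbl and Mup3, with log2 changes of 3.68 to 4.29. A second probe set for Notch1 was under the floor at lactation, at least 1.86-fold higher (adjusted p = 0.0739). Probe sets for Igkv segments and for Mup3 belong to families of near-identical genes, so these names are uncertain, and a second probe set for Igkv6-14, near the floor on all 4 arrays, had a log2 change of -0.20 (adjusted p = 0.587). Among genes at the floor on both lactation arrays, Chil1, which encodes a chitinase-like protein of inflamed tissue, was at least 39.6-fold higher, with 542 and 1159 at involution, against 3.6 and 12.6 at lactation. Napsa, Traf5 and Gpr137b-ps were at least 12.8-fold, 10.5-fold and 10.5-fold higher.

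The largest falls were deeper than the largest rises. Fabp3, which carries fatty acids to the sites of milk fat synthesis, was at 5.3 and 7.3 at involution, against 14683 and 11282 at lactation, at least 644-fold lower. Slc34a2, the sodium phosphate cotransporter that loads milk with phosphate, was at 8.6 and 7.3 at involution, against 8612 and 6999.6 at lactation, at least 388-fold lower. Egf, the gene of epidermal growth factor, was at least 69.6-fold lower and Pip, which encodes prolactin-induced protein, at least 22.1-fold lower, and both were at the floor on the 2 involution arrays. Among genes measured at both stages, Pigr, the receptor that carries IgA into milk, had 200.0 and 496 at involution, against 13244 and 10187 at lactation. Qsox1, which encodes a sulfhydryl oxidase of the secretory pathway, had 76 and 234 at involution, against 10434 and 7462 at lactation, and its second probe set was below the floor at involution and at least 249-fold lower. Fkbp11, a prolyl isomerase gene of the endoplasmic reticulum, had 64.2 and 63.1 at involution, against 2726 and 2869 at lactation. Every one of these was low on both involution arrays and high on both lactation arrays, which the rule that chose the genes largely fixed. Ceacam10 and Mob2 fell by 5.75 and 4.84. Rbfox2, which encodes a splicing factor, had the largest fall of a gene not at the floor (log2 change -6.86), and its other probe set was under the floor on 3 of the 4 arrays.

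The genes of milk proteins fell, by amounts that differed widely. Of 10 measured, 7 fell and none rose, with a median log2 change of -3.81. Lalba, which encodes alpha-lactalbumin, the regulatory subunit of lactose synthase, had 145 and 307 at involution, against 22883 and 18355 at lactation, 97.2-fold lower (standard error 0.48 on the log2 scale, adjusted p = 2.56e-05). Csn1s2b, a calcium-sensitive casein gene, was at 53.5 and 357 at involution, against 18845 and 12378 at lactation, and Csn3, the kappa-casein gene, at 5103 and 7029 at involution, against 25137 and 19813 at lactation. Both had separate arrays, but the casein micelle stabiliser Csn3 was only 3.73-fold lower (adjusted p = 0.00022), against 110-fold for Csn1s2b. Glycam1, a mucin-like protein of the milk fat globule and whey, had 2114 and 1365 at involution, against 26472 and 20679 at lactation, and Cel, a lipase secreted into milk, 434 and 569.8 at involution, against 7718 and 6523 at lactation. Csn1s2a, chosen after its values were seen, was at 2273 and 966 at involution, against 23832 and 19163 at lactation (adjusted p = 0.00921). It did not pass without lactation replicate 1, lactation replicate 2 or involution replicate 2 (log2 changes of -3.69, -4.01 and -3.23). Wap, the whey acidic protein gene, was at 576 and 519 at involution, against 31976 and 25788 at lactation, 52.6-fold lower (adjusted p = 0.00925). Wap did not pass when any 1 of the 4 involution and lactation arrays was left out, with log2 changes of -5.87 to -5.56. For both genes the shared spread took in a wide range among the puberty arrays, 3.4 to 183 for Csn1s2a and 4.1 to 696 for Wap.

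The 3 milk protein genes that did not pass were Csn1s1, Csn2 and Ltf. The signals of Csn1s1 (alpha-casein) were 8099.7 and 9087 at involution, against 31027 and 23559 at lactation, and those of Csn2 (beta-casein) were 3693 and 4016 at involution, against 17606 and 12441 at lactation, so that for both the arrays of the stages were apart. Their adjusted p was 0.33 and 0.13 with the spread shared by all 9 arrays, which takes in a range of 16.8 to 657 for Csn1s1 among the 3 puberty arrays. Without puberty replicate 1 the adjusted p was 0.00425 for Csn1s1 and 0.000618 for Csn2, and in a fit of the 4 involution and lactation arrays alone it was 0.0123 and 0.00712. Ltf, which encodes lactoferrin, an iron-binding protein of milk and of defence, was different: its signals of 2589 and 6221 at involution overlapped those of 4435 and 8938 at lactation (adjusted p = 0.31).

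Genes of the milk fat globule fell as well, 6 of 7 measured, with a median log2 change of -2.65. Cidea, which encodes a protein of lipid droplets, had 128 and 187 at involution, against 14892 and 10789 at lactation, 82.1-fold lower (adjusted p = 3.01e-05). Xdh and Btn1a1, whose products join the droplet to the membrane that coats it, had 313 and 437 at involution, against 3800.0 and 3316 at lactation for Xdh and 628 and 1206 at involution, against 8143 and 6273 at lactation for Btn1a1. The mucin gene Muc1 had 546 and 882 at involution, against 4474 and 4212 at lactation, and Plin2, which coats the droplet in the cell, 1722 and 2031 at involution, against 8574 and 8023 at lactation. Mfge8, whose protein sits on the globule and also binds dying cells for uptake, was at 5608 and 9542 at involution, against 26617 and 19451 at lactation, 3.11-fold lower. All 6 had separate arrays. The fall of Mfge8 did not pass under quantile normalization (log2 change -0.38, adjusted p = 0.205). Cd36, the 1 member that did not pass, had 131 and 92 at involution, against 193 and 140.1 at lactation (adjusted p = 0.109).

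**Figure D3:**
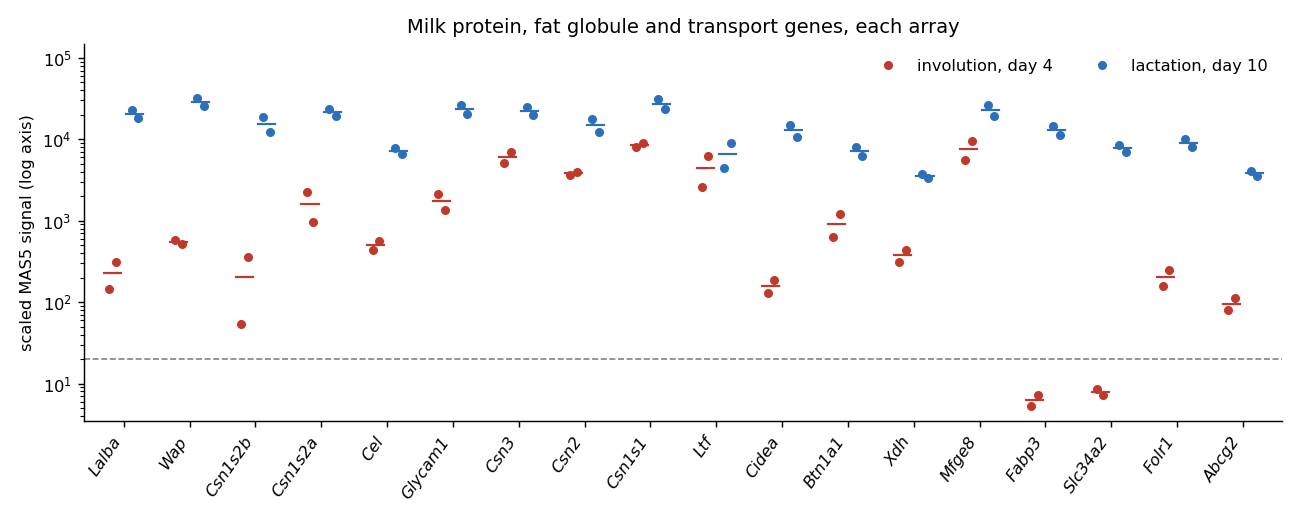
Scaled MAS5 signal (log axis) of 18 genes of milk proteins, the milk fat globule and mammary transport on the 2 involution arrays (red, left of each pair) and the 2 lactation arrays (blue); each point is 1 array, a bar gives the mean of a stage and a dashed line marks 20, the floor. The stages are apart for all genes shown except Ltf, and Fabp3 and Slc34a2 lie below the floor at involution.

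The enzymes of milk fat fell unevenly. For the synthesis of fatty acids and triglycerides, 19 genes were measured, of which 11 fell, 2 rose and 6 did not pass, with a median log2 change of -0.69. Elovl5, which lengthens polyunsaturated fatty acids, had 568 and 687 at involution, against 7003 and 5447 at lactation, and Fads1, a desaturase gene of the same route, 437 and 577 at involution, against 2934 and 3525 at lactation. The stages were apart in both, by 9.88-fold and 6.41-fold. The core enzymes moved less: Fasn, the fatty acid synthase gene, had 4366 and 4305 at involution, against 7328 and 6710.2 at lactation, 1.62-fold lower (adjusted p = 0.018), and Scd1, the main desaturase of saturated fatty acids, had 10167 and 8902 at involution, against 16410.1 and 20481 at lactation (adjusted p = 0.0094). The adjusted p of Fasn lay between 0.0535 and 0.0908 without any 1 of the involution and lactation arrays, and that of Scd1 was 0.0819 without lactation replicate 2 and 0.0501 without involution replicate 2. Under quantile normalization the log2 change of Scd1 turned to 0.18 (adjusted p = 0.598) and Fasn did not pass (log2 change -0.06, adjusted p = 0.798). Gpam, which starts glycerolipid synthesis and is high in fat cells, rose, with 577 and 579 at involution, against 245 and 294 at lactation. The other that rose, Elovl6, an elongase gene, had 1609 and 479.9 at involution, against 218 and 293 at lactation, and its adjusted p of 0.0187 was 0.166 without lactation replicate 1, 0.0942 without lactation replicate 2 and 0.118 without involution replicate 1. Dgat1, the last step of triglyceride synthesis, had 235 and 262 at involution, against 258 and 230.0 at lactation (adjusted p = 0.929).

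Genes of cholesterol synthesis fell in 11 of 16 cases, and none rose. Fdps, which makes farnesyl diphosphate, had 460.3 and 231 at involution, against 1559 and 1816 at lactation (adjusted p = 0.000267), and its 2 other probe sets fell too. Sqle, the squalene epoxidase gene, had 169 and 125 at involution, against 472 and 605 at lactation, and Cyp51, a sterol demethylase gene, 35.3 and 24 at involution, against 80 and 104 at lactation. Hsd17b7, a reductase of the route, was at the floor at involution and at least 6.8-fold lower. Arrays of the stages did not overlap in any of the 4. The count was 7 without involution replicate 2, and 1 gene rose without lactation replicate 1. Genes of lactose and nucleotide sugar synthesis moved in both directions. B4galt1, the catalytic partner of alpha-lactalbumin, had 663 and 760.4 at involution, against 4368 and 3099.5 at lactation, and Slc2a1, the glucose transporter gene, 65.3 and 44.1 at involution, against 376 and 325 at lactation; both fell. Ugdh, which turns UDP-glucose to UDP-glucuronate, a building block of matrix glycans, rose, with 558 and 479.5 at involution, against 102 and 106 at lactation, and so did Pgm1, a phosphoglucomutase gene, with 992 and 1089.5 at involution, against 342 and 341 at lactation. Of the 10 measured genes of lactose and nucleotide sugars 4 fell (40%) and 2 rose (20%), where 21.6% of all genes fell and 24.4% rose.

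Most genes of transport and export fell. Of 15 measured transporter genes 12 fell and none rose, with a median log2 change of -2.97, and 12 fell without any 1 of the 4 arrays as well. Folr1, which encodes a folate receptor, had 159 and 248 at involution, against 9952 and 8047 at lactation, and Abcg2, which pumps riboflavin and drugs into milk, 79.3 and 113 at involution, against 4126 and 3532 at lactation. The calcium pump gene Atp2b2, whose product fills milk with calcium, was at 9.4 and 9.6 at involution, against 366 and 321 at lactation, at least 17.1-fold lower, and the zinc transporter gene Slc39a8 was at 104 and 162 at involution, against 2902 and 2672 at lactation. In each the lactation arrays were far above the involution arrays. Of 26 genes of the endoplasmic reticulum and its coats 20 fell and 1 rose, with a median log2 change of -1.22. Sec61b, a subunit of the channel through which new proteins enter, had 366 and 338 at involution, against 1428 and 1382 at lactation. Ssr2 and Srpr, which act at the same entry, had 136 and 161 at involution, against 721 and 718 at lactation for Ssr2 and 625 and 698 at involution, against 2507 and 2863 at lactation for Srpr. These 3 genes, chosen by the smallest adjusted p of the list, fell by 4-fold, 4.87-fold and 4.06-fold. The 1 that rose was Sec23a, a coat gene, with 220.1 and 192 at involution, against 142 and 149 at lactation (adjusted p = 0.0233). It did not pass under quantile normalization (adjusted p = 0.0522), without involution replicate 1 (0.0558), with the replicate block (0.0544) or in the fit of the 4 arrays alone (0.118), and its second probe set had a log2 change of -0.69 (adjusted p = 0.242).

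Among the receptors and relays of the IL-6 family, Osmr and Socs3 rose, while Stat3 did not pass. Of the STAT5 genes, Stat5a did not pass and Stat5b fell. Osmr, the oncostatin M receptor gene, had 410.1 and 465 at involution, against 36.3 and 47.4 at lactation, 10.5-fold higher (adjusted p = 1.13e-05). Il6st, the signalling subunit that all receptors of the family share, had 469 and 622 at involution, against 120.1 and 153 at lactation, and its second probe set had a log2 change of -0.55 (adjusted p = 0.0836). Lifr, the LIF receptor gene, had 476 and 411 at involution, against 139 and 121 at lactation on its brightest probe set, but 3 others fell, by 0.57, 0.85 and 1.62 on the log2 scale. For Lifr no direction can be given. Socs3, a feedback inhibitor that STAT3 turns on, rose, with 112 and 80.4 at involution, against 8.7 and 35.3 at lactation. Stat3 had 439.5 and 415 at involution, against 465 and 595 at lactation (adjusted p = 0.13), with a log2 change of -0.30 on this probe set and 0.36 (adjusted p = 0.0798) on the other. Without lactation replicate 1 Stat3 was lower at involution on its brightest probe set, with a log2 change of -0.48. Of 13 genes of LIF, OSM and STAT3 signalling 5 rose (38.5%) and 4 fell (30.8%), where 24.4% of all genes rose and 21.6% fell. Fewer fell without involution replicate 1 or lactation replicate 2. The 4 that fell were Pim1, Il4ra, Cebpd and Il6ra, the IL-6 receptor gene, with 18.2 and 47.7 at involution, against 210.1 and 188 at lactation. Lif and Osm, the ligands, were not among the genes tested.

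Elf5, a transcription factor gene that alveolar development needs, had 434 and 632 at involution, against 3561 and 2456 at lactation (adjusted p = 8.64e-05), and Ehf, of the same ETS family, was at the floor at involution and at least 6.17-fold lower. The 2 kinase genes of the AKT family moved apart: Akt1, which secretory cells need for milk synthesis, had 229 and 294 at involution, against 1239.8 and 997 at lactation, and Akt2, the form of insulin-responsive tissues, 458 and 561 at involution, against 205 and 192 at lactation. Stat5a had 505 and 715 at involution, against 857 and 772 at lactation (adjusted p = 0.0784), and its other probe set fell by 0.96. Without involution replicate 2 Stat5a was lower at involution on its brightest probe set, with a log2 change of -0.69. Stat5b, a second STAT5 gene, had 5.9 and 47.3 at involution, against 142 and 89.4 at lactation (adjusted p = 0.00725). It fell by 1.87 on the log2 scale, with 1 involution array under the floor. Of the 15 measured genes of prolactin signalling and mammary regulation 6 fell (40%) and 1 rose (6.67%), where 21.6% of all genes fell and 24.4% rose. Immediate early genes, which cells switch on within minutes of a stimulus, rose in 8 of 18 cases (44.4%) and fell in 2 (11.1%). Fewer rose without involution replicate 1, lactation replicate 1 or lactation replicate 2. Atf3 had 148 and 155 at involution, against 30.1 and 55 at lactation, Klf4 154 and 118 at involution, against 23.7 and 48.9 at lactation and Egr2 125 and 94.7 at involution, against 41.9 and 45.6 at lactation, and none of these overlapped. Fos overlapped, with 494 and 69.8 at involution, against 84.4 and 127 at lactation (adjusted p = 0.402), and passed as higher without involution replicate 2 (adjusted p = 0.0142). The 2 that fell were Jund, which did not pass under quantile normalization (adjusted p = 0.12), and Fosl2, and 1 fell without involution replicate 1 or lactation replicate 2.

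Because STAT5 and STAT3 bind related sites, the start regions of the genes were searched for the letters TTCNNNGAA, along with TGANTCA, bound by AP-1, and TATAAA, on both strands. The windows run from 250 bases before to 50 after each start in RefSeq (GRCm38.p6). TTCNNNGAA stood in 8.15% of the windows of genes that fell, 6.81% of those that rose and 6.84% of those of all tested genes, and in 8.3% of all windows. TGANTCA stood in 6.05%, 6.59%, 6.02% and 7.81% of the same 4 sets. TATAAA was held by 8.02%, 9.08%, 8.94% and 13.6%. For TATAAA the genes that fell or rose were close to all tested genes and well under all windows. A match is no evidence of binding. A RefSeq window was found for 99 of 137 named genes. The windows of 4 of them are shown, with the matches in capitals, since they hold such letters in a gene that fell and in 3 that rose: Glycam1 (chr15:103565032-103565331, minus strand), which fell, with TTCNNNGAA at -145; Cxcl14, a chemokine gene (chr13:56296502-56296801, minus strand), which rose, with TTCNNNGAA at -191; Irf8 (1 of its 2 windows, chr8:120736108-120736407, plus strand), which rose, with TTCNNNGAA at -171 and -153 and TATAAA at -31; and Mmp3, a metalloproteinase gene (chr9:7445572-7445871, plus strand), which rose, with TGANTCA at -46 and TATAAA at -7. Positions count from the start site to the first base of the match.
Glycam1: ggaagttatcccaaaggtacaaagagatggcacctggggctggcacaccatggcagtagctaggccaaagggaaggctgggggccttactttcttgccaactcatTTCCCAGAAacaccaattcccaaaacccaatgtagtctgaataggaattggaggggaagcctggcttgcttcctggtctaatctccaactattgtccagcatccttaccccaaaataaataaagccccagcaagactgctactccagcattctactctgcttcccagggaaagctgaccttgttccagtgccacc
Cxcl14: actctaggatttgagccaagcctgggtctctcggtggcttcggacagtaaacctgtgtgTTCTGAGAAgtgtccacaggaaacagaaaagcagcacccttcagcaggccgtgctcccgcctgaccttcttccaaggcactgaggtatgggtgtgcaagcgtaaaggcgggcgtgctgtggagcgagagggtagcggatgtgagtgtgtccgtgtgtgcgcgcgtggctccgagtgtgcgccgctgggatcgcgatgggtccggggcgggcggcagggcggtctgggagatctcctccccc
Irf8: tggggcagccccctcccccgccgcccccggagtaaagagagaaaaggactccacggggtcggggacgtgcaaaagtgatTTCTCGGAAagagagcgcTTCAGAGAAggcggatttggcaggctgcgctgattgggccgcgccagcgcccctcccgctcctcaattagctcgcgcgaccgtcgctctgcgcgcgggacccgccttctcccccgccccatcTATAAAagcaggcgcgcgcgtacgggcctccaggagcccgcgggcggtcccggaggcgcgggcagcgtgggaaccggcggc
Mmp3: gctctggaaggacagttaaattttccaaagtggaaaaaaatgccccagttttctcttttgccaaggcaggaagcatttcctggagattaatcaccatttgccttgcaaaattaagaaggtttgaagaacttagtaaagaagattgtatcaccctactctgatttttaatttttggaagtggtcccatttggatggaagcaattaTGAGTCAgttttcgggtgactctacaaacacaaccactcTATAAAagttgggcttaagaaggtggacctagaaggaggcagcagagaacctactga

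Genes of cell death rose more often than all genes (50% against 24.4%) and fell about as often (22.7% against 21.6%). Of 22 measured 11 rose and 5 fell, with 7 rising without lactation replicate 1 and 3 falling without involution replicate 1. Gadd45b, a gene of the stress response, had 113 and 111 at involution, against 10.7 and 22.2 at lactation on its brightest probe set, while the other had a log2 change of 0.60 (adjusted p = 0.116). Gadd45a, its relative, had 251 and 158 at involution, against 51.1 and 44.8 at lactation. Tnfrsf1b, a receptor of TNF, had 227 and 236 at involution, against 65.7 and 83.9 at lactation, 3.12-fold higher (adjusted p = 0.000274). The 3 genes had separate arrays. Clu, which encodes clusterin, a chaperone secreted by stressed epithelium, fell, with 1072 and 1346 at involution, against 4484 and 4729.5 at lactation, and its second probe set fell by 1.87. The inhibitor of cell death Bcl2 had 131 and 130.4 at involution, against 386 and 312 at lactation on its brightest probe set, but another, under the floor at lactation, was at least 2.79-fold higher, so no direction can be given. Bcl2l11, a promoter of cell death, likewise rose by 1.06 on 1 probe set, and fell on the other (adjusted p = 0.000297). Bcl2l1, which encodes the survival factor BCL-XL, had 194 and 279 at involution, against 198 and 238 at lactation (adjusted p = 0.737), and the arrays overlapped.

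Of 25 lysosomal genes, whose enzymes break down cells and milk left behind, 8 rose and 5 fell, 3 without involution replicate 1 and 3 without lactation replicate 2. These are shares of 32% and 20%, near those of all genes (24.4% and 21.6%). Ctss, the gene of cathepsin S, a protease of antigen-presenting cells, had 2499.7 on both involution arrays, against 710.1 and 611 at lactation. Cd63, a membrane protein of late endosomes, had 1241 and 1173 at involution, against 184 and 232 at lactation, and Lgmn, which encodes an endopeptidase, 288 and 409.8 at involution, against 69.5 and 90.1 at lactation. Hexa, a hexosaminidase subunit gene, had 471 and 486 at involution, against 117 and 95.8 at lactation. All 4 were clearly higher at involution, by 3.8-fold to 5.85-fold. In contrast Ctsc, the cathepsin C gene, had 336 and 233 at involution, against 706 and 707 at lactation, and Lipa, a lipase of lysosomes, 148 and 353 at involution, against 782 and 917 at lactation, and both fell. The signals of Ctsb, cathepsin B, were 4077 and 5298 at involution, against 5209 and 6037 at lactation (adjusted p = 0.232), although another of its probe sets rose by 0.92 on the log2 scale, and those of Ctsd, cathepsin D, were 2689 and 3555 at involution, against 2052 and 2664 at lactation (adjusted p = 0.115). Neither passed, though Ctsd had separate arrays and passed under quantile normalization (log2 change 0.69, adjusted p = 0.00582).

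Matrix proteases and their inhibitors were rearranged. Of 20 measured genes 9 rose (45%) and 2 fell (10%), where 24.4% of all genes rose and 21.6% fell. Mmp3, which encodes stromelysin-1, an enzyme that opens the basement membrane, had 723 and 959 at involution, against 117 and 187 at lactation, 5.61-fold higher (adjusted p = 0.000197). Mmp12, the elastase of macrophages, had 449 and 664 at involution, against 53.8 and 127 at lactation, and Mmp14, a membrane-bound activator of other metalloproteinases, 589.7 and 1000.2 at involution, against 275 and 231 at lactation. Mmp9 was at the floor at lactation and at least 3.54-fold higher, and Adam8 at least 2.86-fold. Among the inhibitors, Timp3 rose, with 687 and 672 at involution, against 133 and 166 at lactation, while Timp1 fell, with 152 and 245 at involution, against 1548 and 1511 at lactation, 7.93-fold lower (adjusted p = 0.000117). Timp2 fell too, with 51 and 40.7 at involution, against 104 and 176 at lactation. The arrays of the stages were apart in every gene named here, so the proteases and Timp3 were high where Timp1 and Timp2 were low.

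The matrix itself rose at involution against lactation in 26 of 37 genes, with a median log2 change of 1.02, and 1 fell. Fewer passed as higher when any single involution or lactation array was left out. Mgp, which encodes matrix Gla protein, had 547 and 624 at involution, against 68.1 and 87.3 at lactation, and Sparcl1, a glycoprotein of the matrix, 366 and 294 at involution, against 62 and 73.9 at lactation. Col6a3, a collagen VI chain, had 766 and 661 at involution, against 152 and 204 at lactation, and Col3a1, the collagen III chain, 942 and 1049.9 at involution, against 298 and 345 at lactation. Both were higher on the 2 involution arrays, although the 2 other probe sets of Col3a1 did not pass (log2 changes of 0.92 and 0.44, adjusted p = 0.116 and 0.265). For Col3a1 the levels before lactation were higher still: it averaged 2402 ± 630.1 at puberty (SD, n = 3) and 2362 ± 117 at pregnancy (SD, n = 2), and it was below their mean at involution (log2 change -1.24, adjusted p = 0.0101). Over the list, 8 genes were below and 2 above that mean at involution, where 2.16% and 3.98% of all genes were. Tnc, which encodes tenascin-C, was the 1 that fell, with 47.5 and 54.9 at involution, against 168 and 349 at lactation, and its other probe set, under the floor at involution, was at least 1.53-fold lower.

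Growth factors of the stroma and of remodelling changed in part. Of 19 measured genes of the TGF-beta family 8 rose (42.1%) and 3 fell (15.8%), where 24.4% of all genes rose and 21.6% fell. Fewer fell without involution replicate 1, involution replicate 2 or lactation replicate 2. Tgfbi, a matrix protein that TGF-beta induces, had 251 and 237 at involution, against 64 and 68.4 at lactation, and Inhbb, an activin subunit gene, was at the floor at lactation and at least 7-fold higher, with 160.4 and 122 at involution. Tgfb3, the form known to promote death of mammary epithelium at weaning in the mouse, had 430.2 and 1039 at involution, against 195 and 224 at lactation (adjusted p = 0.00668), and did not pass when lactation replicate 1 (adjusted p = 0.0832) or lactation replicate 2 (adjusted p = 0.0583) was left out. Among 12 genes of the IGF axis 2 rose (16.7%) and 3 fell (25%), near the shares of all genes (24.4% and 21.6%). Fewer fell without involution replicate 1 or without lactation replicate 2. Igfbp6 had 611 and 585 at involution, against 213 and 225 at lactation, and Igf2r, the receptor that clears IGF2, had 197 and 195 at involution, against 427 and 461 at lactation. Igf2 itself had 105 and 194 at involution, against 281 and 293 at lactation (adjusted p = 0.0262), and its adjusted p was 0.134, 0.146 and 0.185 without lactation replicate 1, lactation replicate 2 and involution replicate 1. Igfbp5, whose protein binds IGF1 in the involuting gland, was not among the genes tested.

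**Figure D4:**
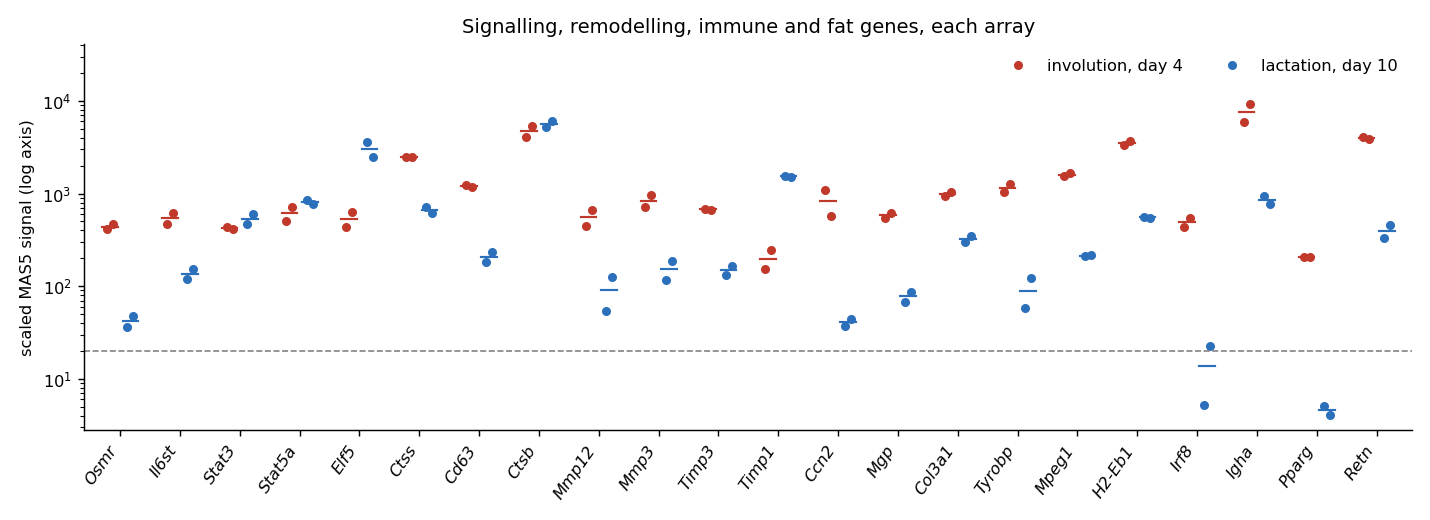
Scaled MAS5 signal (log axis) of 22 genes of signalling, lysosomes, matrix remodelling, immune cells and fat on the 2 involution arrays (red, left of each pair) and the 2 lactation arrays (blue); each point is 1 array, a bar gives the mean of a stage and a dashed line marks 20, the floor. Timp1 and Elf5 are lower at involution, Ctsb overlaps, and Osmr, Mmp3, H2-Eb1 and Retn are higher.

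Chemokine and complement genes rose in most cases. Of 22 measured chemokine and receptor genes 15 rose and 1 fell, with a median log2 change of 1.22. Fewer passed as higher without involution replicate 1, lactation replicate 1 or lactation replicate 2. Ccl8, which draws monocytes, had 1003 and 1595 at involution, against 128 and 125 at lactation, 9.99-fold higher (adjusted p = 1.92e-05), and Ccl5, which draws T cells, 889 and 899 at involution, against 74.3 and 129 at lactation. Cxcl12, which guides leukocytes through the stroma, had 258 and 251 at involution, against 47.3 and 52.1 at lactation, and its 2 other probe sets rose too. Cxcl14 had 810.2 and 937 at involution, against 175 and 149.5 at lactation, and Cxcl13, which attracts B cells, was at the floor at lactation and at least 5.39-fold higher. The 5 genes had separate arrays. Cxcl1, the 1 that fell, had 68.5 and 54.5 at involution, against 144 and 124 at lactation (adjusted p = 0.0486), and it did not pass when any 1 of the 4 arrays was left out (adjusted p = 0.115 to 0.213). Of 12 complement genes 8 rose and none fell, and 1 fell without involution replicate 1. C1qb, a chain of the recognition subunit, had 1188 and 1301 at involution, against 243 and 242 at lactation, although its second probe set had a log2 change of -0.30 (adjusted p = 0.5). Serping1, the gene of the inhibitor of C1, had 1057 and 1229.6 at involution, against 213 and 256 at lactation. C1qa, another chain of the same subunit, had 437 and 828 at involution, against 511 and 614 at lactation (adjusted p = 0.785), and the stages overlapped.

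Most genes of antigen presentation and of the interferon response rose. Of 10 genes of the MHC class II pathway 8 rose and 1 fell, and the same counts were found without any 1 of the 4 arrays. H2-Eb1, a class II beta chain, had 3349 and 3733 at involution, against 563 and 544 at lactation, 6.39-fold higher (adjusted p = 2.13e-05), and H2-Aa, an alpha chain, 4191 and 5873 at involution, against 1072 and 1059 at lactation. The 1 that fell was Ciita, the activator of class II genes, with 60.1 and 56.4 at involution, against 105 and 122 at lactation (adjusted p = 0.0106). Among 17 interferon genes 12 rose and none fell. Psmb8 and Psmb9, subunits of the immunoproteasome, had 1020.4 and 898 at involution, against 124 and 134 at lactation for Psmb8 and 448 and 387 at involution, against 63 and 89.5 at lactation for Psmb9. Tap1, which carries peptides to class I molecules, had 639 and 536 at involution, against 116 and 128 at lactation, but another of its probe sets fell by 0.68. These genes were chosen by the smallest adjusted p of the list, which favours a narrow range on the 2 arrays of a stage. Of 16 genes of the acute phase 4 were higher and 4 lower, 25% each way, near the shares of all genes (24.4% and 21.6%). Hp, the haptoglobin gene, had 2727 and 3054 at involution, against 233 and 483 at lactation and rose. Lbp, which binds bacterial lipopolysaccharide, had 423 and 853 at involution, against 1557 and 3343 at lactation and fell (adjusted p = 0.00418), with an adjusted p of 0.0528 without lactation replicate 2. Slpi, an inhibitor of leukocyte proteases, had 459 and 580.4 at involution, against 174 and 268 at lactation, while its 2 other probe sets went opposite ways, 1 up by 2.80 and 1 down by 1.42 on the log2 scale. The lactation arrays differed from each other in this group: Saa2, a serum amyloid gene, had 275 and 189.7 at involution, against 898 and 6856 at lactation. The count of lower genes was 1 without lactation replicate 2, 1 without involution replicate 2 and 2 without involution replicate 1.

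Markers of macrophages, B cells and T cells were mostly higher at involution. Of 16 macrophage markers 14 rose and none fell, and fewer passed as higher when any single involution or lactation array was left out. Without lactation replicate 1 the marker Fcgr3, near the floor, was lower (log2 change -0.54). The summed signals of the 16 markers were 7742 and 7682 at involution, against 1213 and 1495 at lactation. Mpeg1, which encodes a pore-forming protein of macrophages, had 1533 and 1659 at involution, against 210.3 and 215 at lactation, and Lgals3, the galectin-3 gene, 412 and 426 at involution, against 32.3 and 34.3 at lactation. Csf1r, the receptor of the macrophage growth factor, had 934 and 1107 at involution, against 119.8 and 191 at lactation, though a second probe set fell by 1.24. By contrast Itgam and Fcgr3 were at or near the floor on all 4 arrays and did not pass. Of 10 markers of B cells and plasma cells 9 rose, with sums of 11839 and 15010 at involution, against 1793 and 2611 at lactation. Igha alone gave 5856 and 9319 of the sums at involution, and 942 and 770.4 of those at lactation. Igha, the heavy chain of IgA, the antibody of milk, had 5856 and 9319 at involution, against 942 and 770.4 at lactation on its brightest probe set, and a second rose by 2.43, whereas the third, near the floor, gave a log2 change of 0.25 (adjusted p = 0.608). Jchain, which joins IgA into dimers, had 1364 and 1218 at involution, against 104 and 177 at lactation. Among 12 T cell markers 7 rose, among them Cd3e, with 206 and 118 at involution, against 26.2 and 20.1 at lactation. Cd6 fell on its brightest probe set, by 3.46, while another was under the floor at lactation and at least 2.45-fold higher. Of 8 neutrophil markers none rose past the test and 2 fell, 25%, where 21.6% of all genes fell. These were Mpo, which was at the floor at involution, and Elane. Fewer fell without involution replicate 1, involution replicate 2 or lactation replicate 2. S100a8 and S100a9, both on this list, had log2 changes of 0.58 (adjusted p = 0.616) and 0.20 (adjusted p = 0.856). S100a8 had separate arrays, with 65 and 79.6 at involution, against 38.9 and 59.4 at lactation, while S100a9 was near the floor. The shared spread took in ranges of 24.9 to 267 for S100a8 and 18.4 to 163.5 for S100a9 among the puberty arrays. With standard errors of 0.88 and 0.77, the test could not resolve changes of this size.

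Fat cell markers rose in 9 of 10 cases, with a median log2 change of 2.02 and sums of 20031 and 23817 at involution, against 6483 and 6943 at lactation. Retn, the resistin gene, had 4059 and 3921 at involution, against 331 and 460.4 at lactation, and Adipoq, which encodes adiponectin, 4396 and 5707 at involution, against 956 and 1049 at lactation. Pparg, the transcription factor that makes fat cells, was at 205 and 208 at involution, against 5.1 and 4.1 at lactation, at least 10.3-fold higher. Lep, the leptin gene, had 1132 and 1290.2 at involution, against 289.8 and 435 at lactation, and it was also above the mean of puberty and pregnancy (log2 change 1.55, adjusted p = 0.00311). The second probe set of Lep rose against lactation too but did not pass against the earlier mean (log2 change 0.88, adjusted p = 0.387). Adipoq averaged 5052 ± 927 at involution (SD, n = 2) and 4703 ± 531 at puberty (SD, n = 3). Pnpla2, which starts the breakdown of stored fat, had 2425 and 4422 at involution, against 3021 and 3082 at lactation (adjusted p = 0.814), with overlap. None of 4 brown fat markers passed, 1 was lower without lactation replicate 2, and Ucp1, which defines brown fat cells, was at the floor on all 4 arrays. Fibroblast markers rose in 7 of 12 cases, led by Dpt, the dermatopontin gene, with 626 and 610.1 at involution, against 65 and 53.3 at lactation. Endothelial markers rose in 7 of 11: Vwf, which encodes von Willebrand factor, was at the floor at lactation and at least 10.3-fold higher, with 187 and 225 at involution. Pecam1 was the 1 that fell, with 79.3 and 39.3 at involution, against 154 and 117 at lactation (adjusted p = 0.0336), and its adjusted p was 0.202, 0.0978 and 0.206 without lactation replicate 1, lactation replicate 2 and involution replicate 2.

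Epithelial markers did not move as one. Among 12 luminal markers 3 rose (25%) and 2 fell (16.7%), near the shares of all genes (24.4% and 21.6%). The summed signals of the 12 markers were 3997 and 5491 at involution, against 9646 and 8745 at lactation. The lower sum rested on Cd24a: without it, a division made after the values were seen, the sums were 3195 and 4749 at involution, against 2234 and 2581 at lactation. Krt18 and Krt19, keratins of luminal cells, had 577 and 866 at involution, against 220.4 and 213 at lactation for Krt18 and 1168 and 1657 at involution, against 121 and 302 at lactation for Krt19, and both rose. Krt8, the partner of Krt18 in the same filaments, had 666 and 1012 at involution, against 699 and 824 at lactation (adjusted p = 0.788), and its arrays overlapped. Cd24a, a surface protein of luminal cells, fell, with 801 and 742 at involution, against 7411 and 6164 at lactation. Epcam and Cdh1, which define epithelium, had log2 changes of -0.45 (adjusted p = 0.156) and -0.43 (adjusted p = 0.178). Of 9 basal and myoepithelial markers 4 fell (44.4%) and 2 rose (22.2%), where 21.6% of all genes fell and 24.4% rose. Fewer rose without involution replicate 1, involution replicate 2 or lactation replicate 1. Cnn1 and Actg2, genes of the contractile apparatus, had 188 and 142 at involution, against 507 and 394 at lactation for Cnn1 and 121 and 124 at involution, against 410.2 and 270.1 at lactation for Actg2. Krt5, the defining keratin of basal cells, had 5.7 and 23.5 at involution, against 32.6 and 8.3 at lactation, with 1 array of each stage under the floor, so that its probe set gave no comparison. Of 3 red cell markers 2 fell: Hba-a1, an alpha-globin gene, had 296 and 187 at involution, against 1736 and 2149 at lactation, and Alas2, of haem synthesis in red cells, 14.6 and 27.1 at involution, against 83.8 and 78.3 at lactation. Of 15 muscle genes 1, Myl1, passed, and its adjusted p was 0.0746 to 0.178 without any 1 of the 4 arrays.

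**Figure D5:**
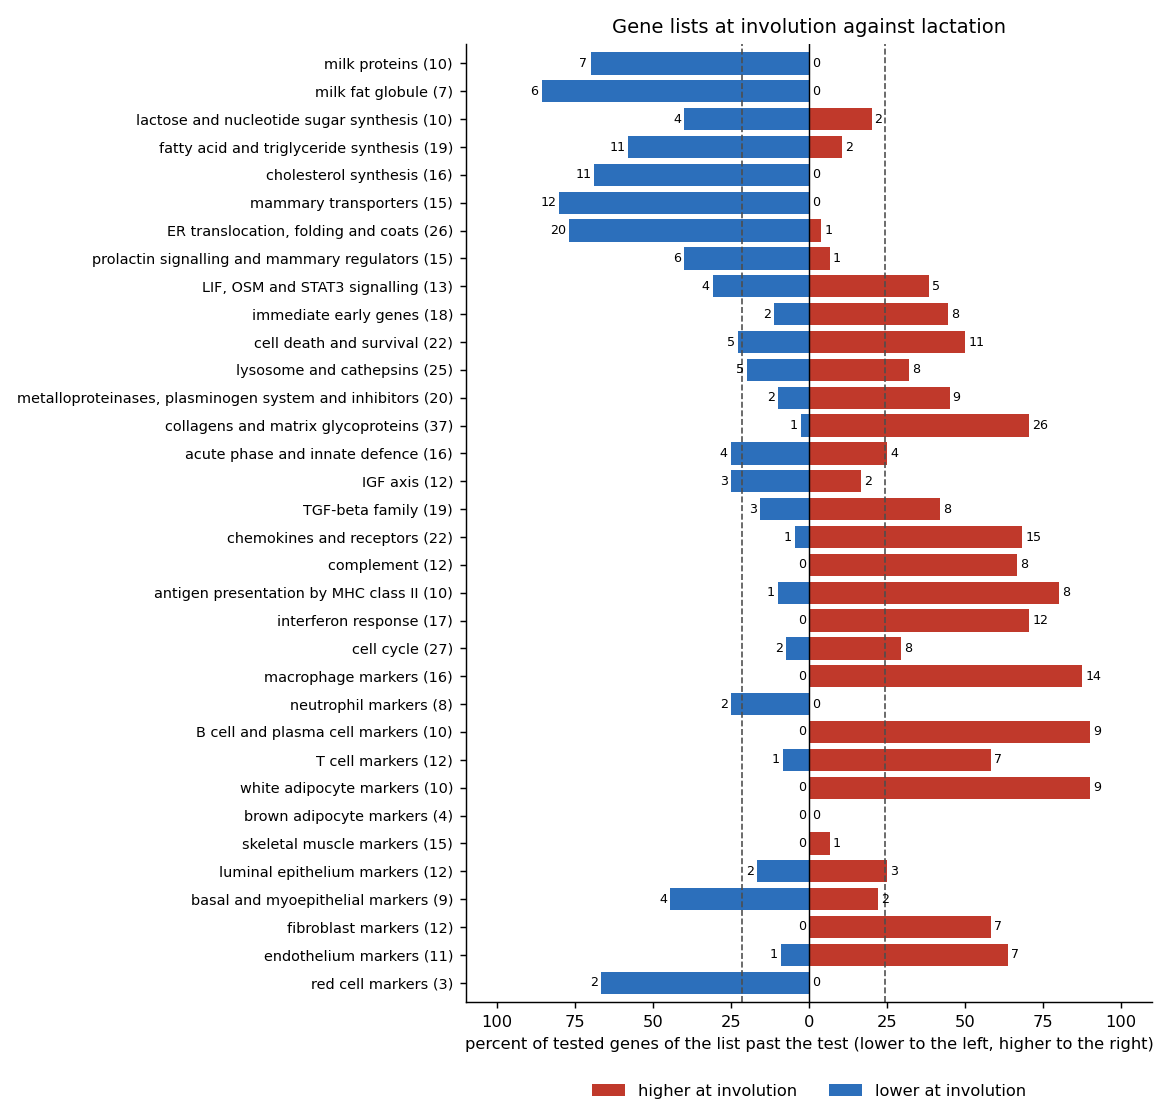
Percent of the tested genes of each of 34 lists that were lower (blue, to the left) or higher (red, to the right) at involution than at lactation by limma (adjusted p below 0.05); the number at each bar counts genes, the number in brackets is the genes tested, and dashed lines mark the shares over all 7090 genes (21.6% lower, 24.4% higher). Secretory lists lie to the left, and lists of matrix, complement, MHC class II, macrophages, B cells and fat cells to the right.

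Genes of the cell cycle leaned upwards, with a median log2 change of 0.54, but most did not pass. Both involution arrays lay above both lactation arrays for 17 genes and below them for 4, where 36.6% and 35.1% of all genes did so. Of 27 measured 8 rose (29.6%), 2 fell (7.41%) and 17 did not pass, where 24.4% of all genes rose and 21.6% fell. Fewer rose without lactation replicate 1. Ccnd1, the cyclin D1 gene, had 531 and 592 at involution, against 128 and 198 at lactation on its brightest probe set, while the other had a log2 change of 0.42 (adjusted p = 0.453). Mcm4, a helicase of replication, had 108 and 90.9 at involution, against 19.1 and 30.5 at lactation, and Rrm1, which makes deoxynucleotides, was at the floor at lactation and at least 4.94-fold higher. Plk1, a kinase of mitosis, fell on its brightest probe set, with 62.3 and 68.2 at involution, against 318 and 202 at lactation, and its 2 other probe sets did not pass. Mki67, the usual label of dividing cells, had 53.3 and 68.3 at involution, against 145 and 124 at lactation, a log2 change of -1.15 (adjusted p = 0.076), with separate arrays. It passed as lower in the fit of the 4 arrays alone (adjusted p = 0.0319), without puberty replicate 1 (0.035) and without puberty replicate 3 (0.0136).

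The stages before lactation place these differences. At involution, 371 probe sets (3.79%) were above and 237 (2.42%) below the mean of puberty and pregnancy. Of the 2165 probe sets higher at involution than at lactation, 1878 (86.7%) did not pass the test against that mean, 266 (12.3%) were above it and 21 below. Of the 2250 lower ones, 2083 (92.6%) did not pass it, 129 (5.73%) were below and 38 above. Both comparisons use the same involution arrays. The counts of 371 and 237 moved with single arrays: they were 118 and 68 without involution replicate 2, 158 and 77 without pregnancy replicate 1, 166 and 110 without pregnancy replicate 2, 205 and 113 without puberty replicate 1 and 232 and 148 without puberty replicate 2, and the lower count was 153 or 150 without lactation replicate 1 or 2. The balance moved with the scaling: the values as deposited gave 286 above and 315 below, and quantile normalization 282 above and 275 below. A p that misses the threshold does not show that the levels were equal. Some secretory genes were lower at involution than at lactation but above the earlier mean, which averages 2 stages that can differ. Lalba had 145 and 307 at involution and averaged 30 ± 16.4 at puberty (SD, n = 3) and 95.9 ± 24.7 at pregnancy (SD, n = 2), a log2 change of 2.05 (adjusted p = 0.0233). Csn3 averaged 6066 ± 1362 at involution (SD, n = 2), 327 ± 40.1 at puberty (SD, n = 3) and 6219.6 ± 633 at pregnancy (SD, n = 2), which is above puberty and within the spread of pregnancy. Muc1 averaged 714 ± 238 at involution, 99.7 ± 9.94 at puberty and 399 ± 33.8 at pregnancy. Glycam1 was the other way, with 2114 and 1365 at involution and means of 2489.5 ± 171 at puberty and 4510.0 ± 897 at pregnancy, a log2 change of -0.97 against the earlier mean (adjusted p = 0.0326). Ltf, which did not pass against lactation, had 2589 and 6221 at involution and averaged 114 ± 36.6 at puberty (SD, n = 3), a log2 change of 5.05 against the earlier mean (adjusted p = 0.000368). Defence and remodelling genes exceeded it too: Igha by 6.56, Mmp12 by 4.50, Ccn2 by 3.39 and Cxcl14 by 3.17. Fabp3 was below the earlier mean (log2 change -2.90, adjusted p = 0.000492), and so was Hba-a1 (log2 change -4.40).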

How the data were processed

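RNA of whole inguinal mammary glands from 9 female mice, 1 female per array by the study's methods (3 at puberty and 2 each at pregnancy, lactation and involution), was hybridised to 1-colour Affymetrix MG-U74Av2 arrays. The labels name biotin labelling of cRNA. The deposited values are linear MAS5 signal intensity values, 1 per probe set, which the authors had scaled to an equal trimmed mean per array; the MAS5 version is not given in the sources used here. The study's further filter and normalization to each gene were not in these values. The 66 control probe sets were set aside (12488 rows deposited), arrays were scaled to equal medians, signals under 20 were raised to 20, and log2 was taken. Probe sets with a mean above 20 in at least 1 of 4 stages were kept, which left out 2639. Stage means of all 9 arrays were fitted with limma 3.58.1 in R 4.3.3 (lmFit, eBayes with trend, 5 residual degrees of freedom). Benjamini-Hochberg adjustment was over all probe sets tested. The scripts were tested on simulated data with 100 probe sets changed at each size, far fewer than were called here. They recovered 22% of log2 changes of 1 and 65% of log2 changes of 2, with 4 false calls among 91. Python 3.11.15 searched the start regions and drew the plots.

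Probe sets were named from the platform's annotation, with 10833 probe sets carrying 1 symbol, 396 several and 1193 none, and 10817 probe sets were updated to RefSeq symbols. A gene stands by its brightest probe set, and no gene was named from a probe set with several symbols. A fold written as "at least" sets the mean of the higher stage against the floor of 20 where both arrays of the other stage lie under it. The members and lists were chosen with earlier results of these data known. The genes named were the 12 largest rises and falls with separate arrays, the 4 largest bounds each way, up to 4 members per list and 2 per marker list with the smallest adjusted p, genes the study names and 6 genes known for roles in involution. Other genes, such as Csn2, Fasn, Mmp12, Igha and Krt8, were chosen after their values were seen. For the largest changes and the members with the smallest adjusted p, the choice required or favoured separate arrays. Their separation is therefore no further support. Over all genes, 36.6% had both involution arrays above both lactation arrays and 35.1% had them below. The p-values rest on the spread between single females, and 2 arrays a stage limit the precision. Shared replicate numbers did not pair the arrays. The closing section gives the effect of other scalings, floors, filters, fits and of leaving out each array.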

Additional observations from a re-analysis of the deposited data

How the results depend on the processing

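Involution against lactation gave 2990 to 4591 calls over all alternatives and 3556 to 4241 with 1 array left out, against 4415. A floor of 50 gave 1868 changes of 2-fold or more, 975 higher and 893 lower, and a fit of the 4 involution and lactation arrays alone gave 1466 lower. Of the 4415 calls, 66.9% were called in the same direction in that fit, 69.9% with the floor of 50 and 97.1% with the values as deposited. Higher calls were 49.0% of all calls, and 45.2% to 52.2% over the alternatives. The median log2 change was -0.03, and -0.09 with equal 75th percentiles.

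The comparison with puberty and pregnancy was less stable, with 371 higher and 237 lower, 608 in all. The values as deposited gave 286 higher and 315 lower, and quantile normalization 282 and 275. A floor of 50 gave 135 lower. Without a filter there were 338 calls (219 higher, 119 lower), and a plain analysis of variance gave 236 (151 higher, 85 lower). Leaving out 1 array gave 186 to 580 calls, 118 to 368 higher and 68 to 212 lower. The lowest counts came without involution replicate 2. Pregnancy replicate 1 or 2 left out gave 235 or 276 calls, puberty replicate 1 or 2 gave 318 or 380, and lactation replicate 1 or 2 gave 153 or 150 lower. The cause was not tested.

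With the replicate number as a block, involution against lactation gave 4032 calls (1980 higher, 2052 lower) and the comparison with the earlier stages 314 (189 higher, 125 lower). Deviations of arrays with the same number had r = -0.01 for involution and lactation and 0.05 for involution and pregnancy, so the numbers did not pair the arrays.

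Among the named genes, over all alternatives, 4584 values kept their side of the threshold without turning in sign, 192 no longer passed, 25 newly passed and 19 turned in sign. Scd1 alone of the genes that turned had passed, and its log2 change under quantile normalization was 0.18 (adjusted p = 0.598). Under quantile normalization Ctsb turned to 0.24, Dgat1 to -0.046 and Ifi30 to -0.056, and with equal 75th percentiles Dgat1 to -0.037 and Ifi30 to -0.061. With 1 array left out, the log2 change ran from -0.054 to 0.11 for Dgat1, -0.14 to 0.15 for Ifi30, -0.17 to 0.36 for Bcl2l1, -0.36 to 0.57 for C1qa, -0.33 to 0.54 for Pnpla2, -0.19 to 0.42 for Krt8, -0.57 to 2.25 for Fos and -0.0082 to 0.41 for S100a9. With 2 arrays in a stage, leaving out 1 assumes that the other varies like the rest of the study. Dim transcripts were called less often: with probe sets in 4 equal bins of mean signal, 29.4% of the dimmest bin passed and 62% of the brightest.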

Other observations

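Of 1389 genes with several probe sets tested, 967 had at least 1 called, and 101 of these had probe sets called in both directions at involution against lactation. Among them were Lifr, Slpi, Bcl2l11, Bcl2, Casp9 and Csf1r. Casp9, which encodes an initiator caspase, had 53.5 and 43.3 at involution, against 119 and 96.5 at lactation on its brightest probe set, and another rose by 1.47 on the log2 scale. Hpgd, which encodes the enzyme that inactivates prostaglandins, had 135 and 163 at involution, against 26.8 and 19.8 at lactation (adjusted p = 9.04e-05).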
